A study of Homo sapiens with 18 samples.

Results

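The promoters described here belong to 10 genes of cell death and its control: FAS, TNFRSF10A, TNFRSF10C, TNFRSF10D, CASP8, DAPK1, BNIP3, HRK, PYCARD and TP73. They were taken by gene name, out of 20162 protein-coding genes, and each was represented by a window of 1000 bp on either side of the gene's 5′ end in the human genome build GRCh37 (hg19). DNA methylation was measured in 3 untreated human cancer cell lines: HCT15, from a colorectal carcinoma, and DU145 and PC3, from prostate cancer. The labels give ATCC as the source of every line, while the study's methods name another source and a later passage for DU145. Each line was assayed by reduced representation bisulfite sequencing (RRBS), which reads the methylated share of single CpGs near the cut sites of the enzymes used, and by MBD-seq, in which a methyl-CpG-binding domain pulls methylated fragments out of sheared DNA. MBD-seq was performed with 5 commercial kits, MethylMagnet, MethylCollector, MethylCollector Ultra, MethylCap and MethylMiner. There was 1 library per line and assay, 18 in all, so differences between lines have no biological replicates and a test on reads compares those libraries.

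Apoptosis can be started from outside the cell by death receptors or from inside by the BCL2 family at the mitochondrion, and both routes end in caspases, the proteases that dismantle the cell. FAS and TNFRSF10A (a TRAIL receptor, DR4) carry the death signal across the membrane through CASP8, while TNFRSF10C and TNFRSF10D are decoy receptors that bind TRAIL without passing a full signal. BNIP3 and HRK are BCL2-family proteins that promote death, DAPK1 is a death-associated kinase, PYCARD (ASC) is the adaptor of inflammasomes, and TP73 is a relative of p53. Methylation of CpGs around a transcription start is generally associated with a silent promoter, and several of these genes are known as targets of promoter methylation in tumours. No RNA was measured in this study, so the values below are methylation only.

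Sequence is shown for BNIP3, whose window mean had the largest range over the lines (87.9 points), and for TP73, HRK and DAPK1, whose ranges were smaller (17.6, 12.7 and 11.1 points) and came from part of the window. TNFRSF10C and TNFRSF10D, with larger ranges than these 3, are described by their values only. Each stretch is the one of at most 200 bases outside annotated UTRs that holds the most CpGs called different between any pair of lines. A CpG was called at an adjusted p under 0.05 (two-sided Fisher's exact test on methylated and unmethylated reads, Benjamini-Hochberg over all CpGs with at least 10 reads in both lines) with a difference of at least 25 percentage points. Capitals mark the called CpGs, and all sequences read 5′ to 3′ on the strand of the gene. BNIP3 is shown on the minus strand at chr10:133795632-133795831, with 16 called CpGs out of 32. TP73 is shown on the plus strand at chr1:3568145-3568344, with 18 of 26. HRK is shown on the minus strand at chr12:117319758-117319957, with 8 of 13. DAPK1 is shown on the plus strand at chr9:90112408-90112595, with 3 of 18.
BNIP3: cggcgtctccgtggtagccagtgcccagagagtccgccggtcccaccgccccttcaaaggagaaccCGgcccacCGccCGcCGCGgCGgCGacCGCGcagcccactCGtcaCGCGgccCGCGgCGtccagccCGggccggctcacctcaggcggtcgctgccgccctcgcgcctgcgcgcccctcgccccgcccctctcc
TP73: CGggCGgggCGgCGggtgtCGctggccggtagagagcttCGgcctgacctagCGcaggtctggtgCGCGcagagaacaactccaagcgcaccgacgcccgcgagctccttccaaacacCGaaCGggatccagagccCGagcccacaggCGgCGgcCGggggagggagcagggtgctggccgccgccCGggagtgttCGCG
HRK: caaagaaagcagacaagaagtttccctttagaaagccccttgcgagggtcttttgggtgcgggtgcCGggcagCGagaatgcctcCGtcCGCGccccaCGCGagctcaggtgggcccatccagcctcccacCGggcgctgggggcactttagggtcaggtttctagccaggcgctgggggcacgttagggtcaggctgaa
DAPK1: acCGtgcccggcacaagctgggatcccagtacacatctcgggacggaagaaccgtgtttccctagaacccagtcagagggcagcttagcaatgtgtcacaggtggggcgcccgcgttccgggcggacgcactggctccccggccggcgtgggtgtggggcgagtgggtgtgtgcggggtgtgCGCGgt
At the capitals of the BNIP3 stretch the mean methylation was 98.5% in HCT15, 7.32% in DU145 and 7.40% in PC3. At those of TP73 it was 95.3%, 9.42% and 20.8%, and at those of HRK 95.8%, 46.8% and 42.3%. DAPK1 went the other way, with 0.0% in HCT15, 2.98% in DU145 and 41.2% in PC3. These CpGs were picked by a difference in the same reads, so a gap between some pair of lines was fixed in advance. Leaving out called CpGs that lie in CCGG or TCGA, whose levels are treated in the next paragraph, the BNIP3 means were 98.3%, 0.980% and 0.752% over 14 CpGs. Those of TP73 were 95.1%, 7.42% and 18.0% over 16, and those of HRK 97.6%, 40.1% and 37.3% over 6, while none of the 3 of DAPK1 lies in such a site. The stretch of PYCARD that passed the same rule held only 1 called CpG and is not shown.

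CpGs inside CCGG or TCGA behaved differently from their neighbours in all 3 RRBS libraries, which touches every level over all CpGs. Over CpGs with at least 20 reads whose other neighbours within 100 bp were all at most 5% methylated, the median at CCGG and TCGA was 51.3% in HCT15, 52.0% in DU145 and 52.0% in PC3, against 0.0% at all other CpGs in each line. In the 13 combinations of member and line with a mean of at most 10% outside these sites, the mean inside them ran from 48.0% to 57.8%. The lowest mean over all CpGs of any member was 9.75%. Why these sites differ was not tested. Each window is given below as the mean over all CpGs of at least 10 reads and, after seeing this, also as the mean outside CCGG and TCGA, with the SD over CpGs.

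Of the 10 windows, 9 could be measured by RRBS, with 20 to 90 CpGs per line, and CASP8 could not. HCT15 had 3 windows at or above 50% methylation (BNIP3, PYCARD and TNFRSF10C), DU145 had 0 and PC3 had 2 (TNFRSF10C and TNFRSF10D). Among all protein-coding windows with at least 3 measured CpGs, the share at or above 50% was 28.4% in HCT15, 21.3% in DU145 and 19.3% in PC3. Outside CCGG and TCGA it was 23.7%, 15.7% and 14.4%. The counts of members were the same outside these sites. Differences of at least 25 points between window means were found for 3 of 9 members in HCT15 against DU145, 4 in HCT15 against PC3 and 2 in DU145 against PC3. The shares of all windows past that difference were 14.8%, 14.7% and 9.19%, or 16.1%, 16.4% and 10.1% outside CCGG and TCGA. With 9 members, a share of this kind rests on few windows. There is no test of window means with 1 library per line, and the tests below are of single CpGs.

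**Figure D1:**
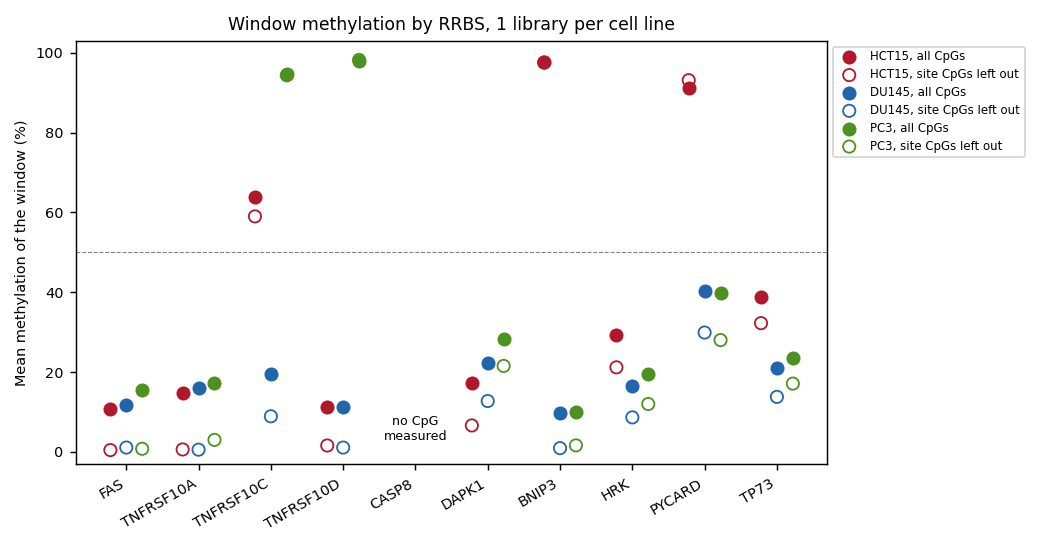
Mean RRBS methylation (%) of each window, 1 library per cell line. Filled points use all CpGs of at least 10 reads, open points leave out CpGs in CCGG or TCGA (site CpGs in the legend), and the dashed line marks 50%; BNIP3 in HCT15 (97.6%) and TNFRSF10D in PC3 (98.0%) stand far above the same windows in the other lines, and CASP8 had no measured CpG.

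In HCT15 against DU145, 132 of the 438 CpGs tested in the windows were called, 126 higher and 6 lower in HCT15, where 14.1% of all CpGs tested were called. In HCT15 against PC3, 162 of 389 were called, 94 higher and 68 lower in HCT15, against 15.1% of all. In DU145 against PC3, 88 of 378 were called, 9 higher and 79 lower in DU145, against 15.5% of all. Over all CpGs tested, 129238 were called higher and 125115 lower in HCT15 than in DU145, and 201832 higher and 68035 lower in HCT15 than in PC3. In DU145 against PC3 the split over all CpGs ran opposite to that of the CpGs in the windows, with 226629 higher and 63382 lower in DU145. Most of the 79 lower in DU145 came from few windows, with 33 in TNFRSF10D, 20 in TNFRSF10C and 13 in DAPK1. TNFRSF10C and TNFRSF10D are neighbours on chromosome 8. Of the 9 higher in DU145, TP73 gave 5. CpGs of a window are not independent of each other, and a single window such as BNIP3 gave up to 50 of these calls. FAS contributed none in any pair, and DAPK1, TNFRSF10A and TNFRSF10D none in HCT15 against DU145.

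FAS, the receptor of FAS ligand, was close to unmethylated in every line outside CCGG and TCGA. Its window (chr10:90749414-90751414, plus strand) held 91 CpGs, of which 49 were measured in HCT15, 52 in DU145 and 32 in PC3. The mean was 10.8% ± 21.6 (SD over CpGs) in HCT15, 11.7% ± 23.8 in DU145 and 15.5% ± 30 in PC3. Outside CCGG and TCGA it was 0.467% ± 1.58, 1.11% ± 2.48 and 0.791% ± 2.23, and no single CpG outside these sites was above 11.8%. Over the 32 CpGs covered in all lines the means were 14.7%, 15.2% and 15.5%. All 4 kits other than MethylMiner gave 0 fragments over the FAS window in all lines. With MethylMiner the lines HCT15, DU145 and PC3 had 7, 6 and 4 fragments. Around FAS the PC3 MethylMiner library was also thin, with 122 fragments per 1000000 of the library within 500 kb against 278 in HCT15 and 277 in DU145. The part of copy number in the PC3 values was not tested.

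TNFRSF10A, the TRAIL receptor DR4, was low as well. Its window (chr8:23081615-23083615, minus strand) had 128 CpGs, with 29 measured in HCT15 and 20 in each of DU145 and PC3. The mean was 14.8% ± 23.6 in HCT15, 15.9% ± 25.3 in DU145 and 17.3% ± 27.8 in PC3. Outside CCGG and TCGA it was 0.623% ± 1.57, 0.570% ± 0.941 and 3.02% ± 2.75. No CpG differed between HCT15 and DU145, and 1 CpG, 300 bp downstream of the 5′ end, was called lower in PC3 than in each of the other lines (0 of 13 reads in PC3, 14 of 29 in HCT15 and 25 of 55 in DU145). That CpG lies in a CCGG site. The adjusted p was 0.0122 against HCT15 and 0.00906 against DU145 (Fisher's exact test). The 500 bp just upstream of the 5′ end hold 31 CpGs, none of which was measured in any line.

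The decoy receptor TNFRSF10C was the window with 3 different levels. It lies on the plus strand at chr8:22959434-22961434, with 76 CpGs. No CpG upstream of the 5′ end was measured in any line. The measured CpGs lay 138 to 833 bp downstream in HCT15 and DU145, and 138 to 515 bp downstream in PC3. The mean was 64.0% ± 16.9 over 32 CpGs in HCT15, 19.6% ± 24.9 over 36 in DU145 and 94.7% ± 8.39 over 21 in PC3, and outside CCGG and TCGA 59.0% ± 15.6, 8.93% ± 13.5 and 94.3% ± 9.38. Of all HCT15 reads, 61.7% were methylated (95% Wilson interval 59.3 to 64.0%). The Wilson interval of DU145 was 16.6 to 19.2% and that of PC3 was 93.5 to 96.1%. These and the other intervals cover counting error only, since PCR copies of a molecule are not marked. HCT15 was higher than DU145 at 24 of 32 CpGs, with a median of 48.5 points at those called, and lower than PC3 at 16 of 21, with a median difference of -42.1 points. DU145 was lower than PC3 at 20 of 21 CpGs (median -85.0 points). At the CpG 334 bp downstream of the 5′ end, 38 of 84 reads were methylated in HCT15, 2 of 234 in DU145 and 56 of 56 in PC3 (adjusted p = 2.28e-21 for HCT15 against DU145 and 3.04e-12 for HCT15 against PC3, Fisher's exact test). In HCT15, 0 of its 32 measured CpGs were at most 20% methylated and 5 were at least 80%, so that most of its CpGs were at middle levels.

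TNFRSF10D, the other decoy receptor, was high in PC3 and low in HCT15 and DU145. Its window on the minus strand (chr8:23020540-23022540) had a mean of 11.3% ± 23.8 over 67 CpGs in HCT15, 11.2% ± 21.6 over 56 in DU145 and 98.0% ± 3.70 over 34 in PC3. Outside CCGG and TCGA these became 1.61% ± 7.82, 1.1% ± 2.0 and 98.2% ± 3.48. A single CpG outside these sites reached 57.1% in HCT15, and none was above 9.09% in DU145. The share of methylated reads in PC3 was 98.1% (95% Wilson interval 97.0 to 98.8%), and all 34 CpGs measured there were at least 80% methylated. PC3 was higher than HCT15 at 32 of 34 CpGs and higher than DU145 at 33 of 34, from 36 bp upstream to 835 bp downstream of the 5′ end. At the CpG 800 bp downstream, 56 of 56 reads were methylated in PC3, 0 of 76 in HCT15 and 0 of 136 in DU145 (adjusted p = 5.25e-36 and 4.22e-47, Fisher's exact test). The receptors TNFRSF10A, TNFRSF10C and TNFRSF10D are neighbours on chromosome 8 and are close relatives in sequence, and only read pairs with a unique match were kept in MBD-seq. In this region PC3 MethylMiner fragments were also fewer, at 361 to 385 per 1000000 within 500 kb of each 5′ end, against 578 to 618 in HCT15 and 549 to 578 in DU145. Whether copy number moved with the PC3 methylation was not tested.

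CASP8, the initiator caspase of the death receptors, had a CpG-poor window. The gene's outermost 5′ end (chr2:202097166-202099166, plus strand) held 29 CpGs, with 0 measured in any line, and 1 fragment was captured there by the 4 kits other than MethylMiner, in PC3 by MethylCollector Ultra. The start of the canonical transcript lies 27093 bp downstream, and the window there had 5 measured CpGs in HCT15 and 6 in each of DU145 and PC3. Their mean was 97.3% ± 2.45 in HCT15, 88.2% ± 26.9 in DU145 and 87.0% ± 23.4 in PC3. Outside CCGG and TCGA it was 96.9% over 3 CpGs in HCT15, 82.4% over 4 in DU145 and 82.9% over 4 in PC3. MethylCap captured 11 HCT15 fragments over that window, and 1 from each of the prostate lines. Scaled to 1000000 fragments these were 2.83 in HCT15 (95% Poisson interval 1.41 to 5.06), 1.21 for DU145 (0.0307 to 6.77) and 1.05 for PC3 (0.0266 to 5.86), and the intervals overlap.

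DAPK1, the death-associated kinase, was higher in PC3 than in the other lines downstream of its 5′ end. The window (chr9:90111143-90113143, plus strand, 111 CpGs) had a mean of 17.2% ± 30.9 over 62 CpGs in HCT15, 22.2% ± 34.7 over 65 in DU145 and 28.3% ± 29.0 over 57 in PC3, or 6.64% ± 24.1, 12.8% ± 31.3 and 21.5% ± 26.6 outside CCGG and TCGA. The order of these means depended on the window, since within 2000 bp either side they were 26.1%, 22.1% and 25.3%. They join a pair of different regions. Upstream of the 5′ end, the CpGs outside these sites had a mean of 98.7% over 3 CpGs in HCT15 and 97.3% over 6 in DU145, while PC3 had 1 such CpG at 30%. Downstream, the mean was 0.502% over 45 CpGs in HCT15, 1.48% over 45 in DU145 and 21.4% over 44 in PC3. PC3 was higher than HCT15 at 14 of 57 CpGs and higher than DU145 at 13 of 57, all between 267 and 999 bp downstream. The CpG at 476 bp downstream had 69 of 80 reads methylated in PC3 and 0 of 78 in HCT15 (adjusted p = 4.3e-31, Fisher's exact test). Of the 45 CpGs of PC3 outside CCGG and TCGA, 22 were at most 10% methylated. At the single upstream CpG measured in PC3 the order was turned, with HCT15 higher by 66.0 points and DU145 by 70.0. All depth of PC3 MethylMagnet (1 fragment) and MethylCollector Ultra (2 fragments) over the window lay in the stretch of called CpGs, and none of that of MethylCap (1 fragment) did. The MethylMiner library of PC3 had 0 fragments over this window and 239 per 1000000 within 500 kb, against 416 in HCT15 and 458 in DU145, and the part of copy number was not tested.

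BNIP3, a mitochondrial BCL2-family protein that is induced by low oxygen, was high in HCT15 and low in both prostate lines. Its window (chr10:133794471-133796471, minus strand) had 222 CpGs, more than 98.6% of all protein-coding windows. The mean was 97.6% ± 3.48 over 51 CpGs in HCT15, 9.75% ± 22.5 over 51 in DU145 and 10.1% ± 21.4 over 44 in PC3, and outside CCGG and TCGA 97.5% ± 3.51, 0.954% ± 1.14 and 1.64% ± 4.40. Of the reads in HCT15, 97.0% were methylated (95% Wilson interval 96.1 to 97.7%). HCT15 was higher than DU145 at 50 of 51 CpGs, with a median of 96.4 points, and higher than PC3 at 42 of 44, with a median of 96.6 points. DU145 and PC3 differed at 1 of 44 CpGs, 373 bp downstream of the 5′ end, where 0 of 86 reads were methylated in DU145 and 9 of 34 in PC3 (adjusted p = 6.02e-05, Fisher's exact test). The 51 CpGs measured in HCT15 all lay between -293 and 380 bp from the 5′ end, and RRBS measured none in the outer parts.

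HRK, a BH3-only activator of death, showed methylated flanks around an unmethylated centre. In its window (chr12:117318246-117320246, minus strand, 154 CpGs) the mean was 29.2% ± 40.9 over 72 CpGs in HCT15, 16.5% ± 27.3 over 69 in DU145 and 19.5% ± 27.7 over 72 in PC3, or 21.2% ± 38.9, 8.65% ± 20.7 and 12.0% ± 22.1 outside CCGG and TCGA. In the first 500 bp downstream of the 5′ end the mean outside these sites was 0.616% over 46 CpGs in HCT15, 0.954% over 45 in DU145 and 2.86% over 46 in PC3. Between -1000 and -501 bp it was 97.2% over 7 CpGs in HCT15, 40.1% over 6 in DU145 and 32.8% over 7 in PC3. From 500 bp to 1000 bp downstream it was 93.5% in HCT15, 51.8% in DU145 and 73.4% in PC3, over 4 CpGs in each. HCT15 was higher at 11 of 69 CpGs against DU145 and at 12 of 72 against PC3, and lower at 0 and 1. At the CpG at -612 bp, 80 of 84 reads were methylated in HCT15 and 18 of 196 in DU145 (adjusted p = 3.78e-44, Fisher's exact test).

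PYCARD, the inflammasome adaptor that also takes part in apoptosis, was nearly fully methylated in HCT15 and partly in the prostate lines. Its window (chr16:31213771-31215771, minus strand, 86 CpGs) had a mean of 91.1% ± 20.3 over 29 CpGs in HCT15, 40.2% ± 31.9 over 20 in DU145 and 39.8% ± 34.9 over 22 in PC3, or 93.1% ± 21.2, 29.9% ± 29.2 and 28.0% ± 32.9 outside CCGG and TCGA. Most CpGs of the window, 50 of 86, lie between 500 and 1000 bp downstream of the outermost 5′ end, around the start of the canonical transcript at 690 bp. In that stretch the mean outside these sites was 97.5% over 18 CpGs in HCT15, 16.3% over 11 in DU145 and 11.7% over 11 in PC3. Just before it, in the first 500 bp after the outermost 5′ end, the prostate lines were high as well, with 98.1% in HCT15, 79.7% in DU145 and 82.4% in PC3, each over 3 CpGs. HCT15 was higher than DU145 at 16 of 19 CpGs and higher than PC3 at 15 of 22. At the CpG 696 bp downstream, 60 of 62 reads were methylated in HCT15 and 0 of 66 in PC3 (adjusted p = 3e-32, Fisher's exact test). A window of 500 bp either side kept only 5 CpGs in DU145 and PC3 and missed this region, and the difference in window means then was 17.9 points against DU145 and 15.1 against PC3, below 25 points.

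TP73, the p53 relative, differed in its upstream part. The window (chr1:3568080-3570080, plus strand, 195 CpGs) had a mean of 38.7% ± 41.5 over 87 CpGs in HCT15, 21.1% ± 23.3 over 82 in DU145 and 23.6% ± 24.1 over 90 in PC3, or 32.3% ± 41.6, 13.8% ± 16.5 and 17.1% ± 20 outside CCGG and TCGA. Nearly all measured CpGs were upstream, since the 500 bp after the 5′ end held 57 CpGs with 0 measured. Between -1000 and -501 bp the mean outside these sites was 79.7% over 27 CpGs in HCT15, 11.2% over 20 in DU145 and 22.9% over 28 in PC3. In the next 500 bp the order turned, with 3.78% in HCT15, 11.9% in DU145 and 12.6% in PC3, over 45 CpGs in each. HCT15 was higher than DU145 at 25 of 80 CpGs, all between -974 and -646 bp, and lower at 6, all between -514 and -122 bp. Against PC3 it was higher at 23 of 87 CpGs and lower at 4. At the CpG at -926 bp, 88 of 89 reads were methylated in HCT15, 6 of 128 in DU145 and 4 of 136 in PC3 (adjusted p = 1.9e-49 and 5.06e-53, Fisher's exact test). In HCT15, 26 of the 87 CpGs were at least 80% methylated and 45 at most 20%.

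**Figure D2:**
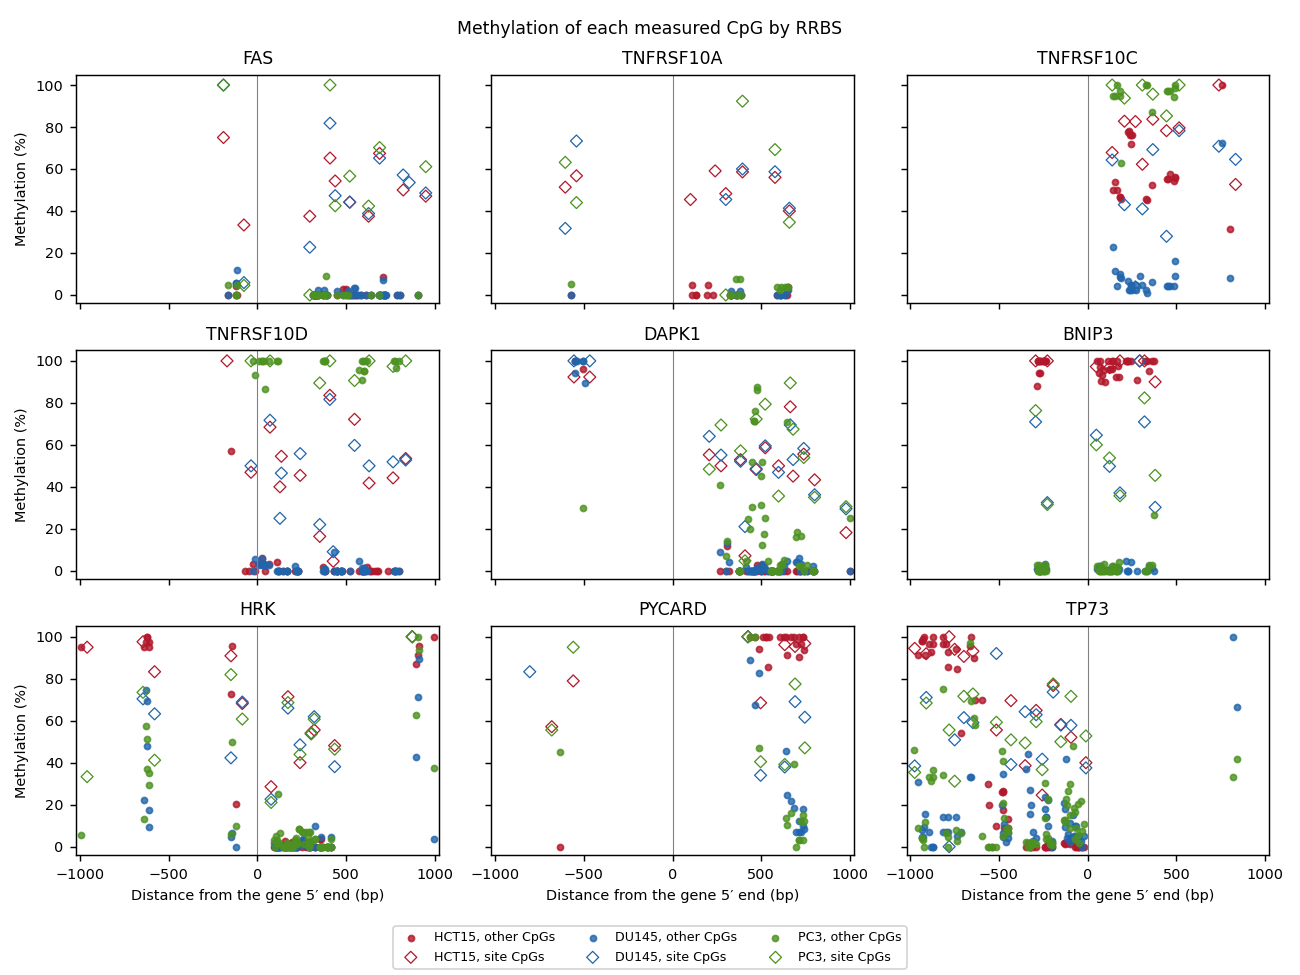
Methylation (%) of each CpG with at least 10 reads, by distance from the gene 5′ end (bp), in the 3 lines. Diamonds are CpGs in CCGG or TCGA, which lie in the middle of the scale also where the other CpGs (dots) are near 0; in HCT15, TP73 and HRK change from high to low on the way to the 5′ end.

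The MBD-seq libraries were used to ask whether captured fragments showed the same windows. Depth differed widely, from 10040 fragments in DU145 MethylMagnet to 7344098 in HCT15 MethylMiner, and in DU145 MethylMagnet, MethylCollector and MethylCollector Ultra had at most 30336 fragments each. CpGs that RRBS found methylated in 1 line only served to check the labels. In 12 of 15 libraries the mean depth was highest over the CpGs of the labelled line, and the other 3 were all MethylMiner. In HCT15, the 3 windows at or above 50% held 11 of the 14 member fragments in MethylMagnet, 35 of 45 in MethylCollector, 36 of 50 in MethylCollector Ultra and 75 of 113 in MethylCap, but 33 of 97 in MethylMiner. In PC3 the 2 windows at or above 50% held smaller shares in most kits, with 5 of 11, 3 of 4, 6 of 14 and 3 of 15 fragments in the same 4 kits and 8 of 44 in MethylMiner. The 4 windows under 20% in HCT15 held 1, 2, 0 and 6 fragments in the first 4 kits and 33 in MethylMiner. Across the 9 windows, Spearman's rho between the RRBS mean outside CCGG and TCGA and the fragments was 0.81 to 0.95 in these 4 kits in HCT15, 0.68 to 0.81 in PC3 and -0.27 to 0.10 in the 3 DU145 libraries with any fragments. For MethylMiner it was 0.25, 0.14 and 0.11 in HCT15, DU145 and PC3. These describe 9 windows that share a library and differ in CpG number, and DU145 had only 0 to 11 member fragments per library in the 4 kits.

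**Figure D3:**
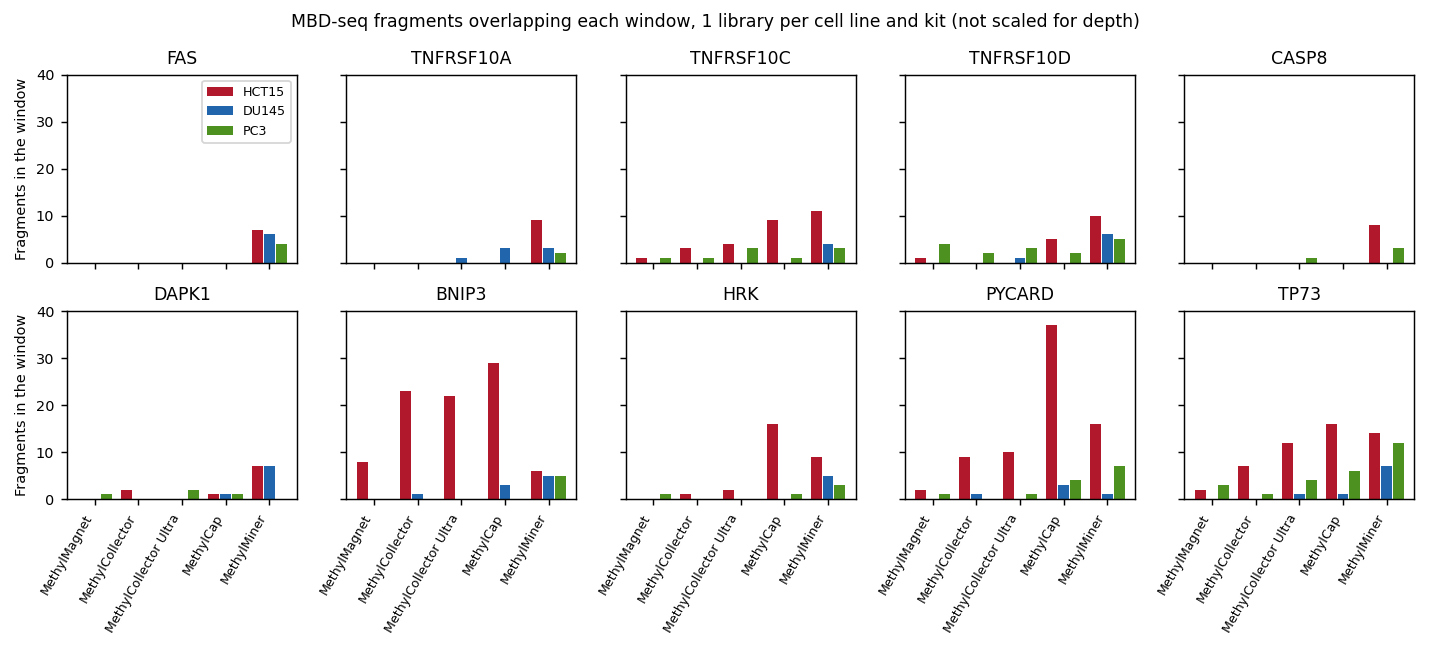
Number of MBD-seq fragments overlapping each window (y axis, not scaled for depth) by kit and cell line. BNIP3 and PYCARD in HCT15 stand out, with up to 29 and 37 fragments in MethylCap, while MethylMiner gave fragments over all 10 windows in HCT15 and over 9 in each of DU145 and PC3.

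BNIP3 was the member with the clearest capture. In HCT15 it had 8 fragments in MethylMagnet, 23 in MethylCollector, 22 in MethylCollector Ultra and 29 in MethylCap, in PC3 it had 0 in all 4, and in DU145 it had 0, 1, 0 and 3. The depth-scaled count of HCT15 was set against the limit that a count of 0 allows in PC3 (3 counts per library). It was 10.8 times that limit in MethylMagnet, 2.45 times in MethylCollector, 6.5 times in MethylCollector Ultra and 2.36 times in MethylCap. These ratios leave out the counting error of HCT15. The depth-scaled Poisson intervals of HCT15 and PC3 did not overlap in any of the 4 kits. In MethylCap that of HCT15 began at 5.00 and that of PC3 reached 3.88. Depth-scaled fragments within 500 kb were also higher in HCT15 in all 4 kits (1734 against 669 in MethylMagnet). The part of this in the ratios was not tested. The MethylMagnet library of PC3 was deeper than that of HCT15 (242074 against 59972 fragments). All the depth of the 3 DU145 MethylCap fragments in the window lay between -1000 and -501 bp, where 56 CpGs exist and RRBS measured none. MethylMiner gave 6, 5 and 5 fragments in HCT15, DU145 and PC3.

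PYCARD had 2, 9, 10 and 37 fragments in HCT15 in the kits from MethylMagnet to MethylCap. It had 0, 1, 0 and 3 in DU145 and 1, 0, 1 and 4 in PC3. MethylCap gave 9.52 fragments per 1000000 in HCT15 (95% Poisson interval 6.70 to 13.1). The prostate lines had 3.64 (DU145, 0.751 to 10.6) and 4.21 (PC3, 1.15 to 10.8), with overlapping intervals. TP73 had 2, 7, 12 and 16 fragments in HCT15, 0, 0, 1 and 1 in DU145 and 3, 1, 4 and 6 in PC3, and MethylCap gave 4.12 per 1000000 in HCT15 (2.35 to 6.69) against 6.31 in PC3 (2.32 to 13.7), so that no difference between these lines was detectable at this depth. PC3 had 1386 MethylMiner fragments per 1000000 within 500 kb of TP73, against 776 in HCT15 and 681 in DU145, and the part of copy number was not tested. HRK had 0, 1, 2 and 16 fragments in HCT15, none in DU145 and 2 in all in PC3. In MethylCap this came to 4.12 per 1000000 in HCT15 (2.35 to 6.69) and 1.05 in PC3 (0.0266 to 5.86), with overlapping intervals. The interval of DU145, with 0 fragments, reached 4.48 and overlapped that of HCT15 as well. Over TP73 in HCT15, the stretch of called CpGs from -974 to -646 bp, 16.4% of the window, held between 80.3% and 90.2% of the depth in the 4 kits. The stretches called in other members between HCT15 and DU145 did not all hold more than their share of the window. That of BNIP3 (33.7% of the window) held 27.8% of the HCT15 MethylCap depth and 42.5% to 49.1% in the other 3 kits, that of PYCARD (14.1%) held 4.97% in MethylMagnet and 19.8% to 46.3% in the other 3, and that of TNFRSF10C (29.3%) held 21.1% in MethylCap and 70.5% to 100% in the other 3. For HRK, 67.9% of the HCT15 MethylCap depth was between -1000 and -501 bp and 8.76% over the first 500 bp after the 5′ end.

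**Figure D4:**
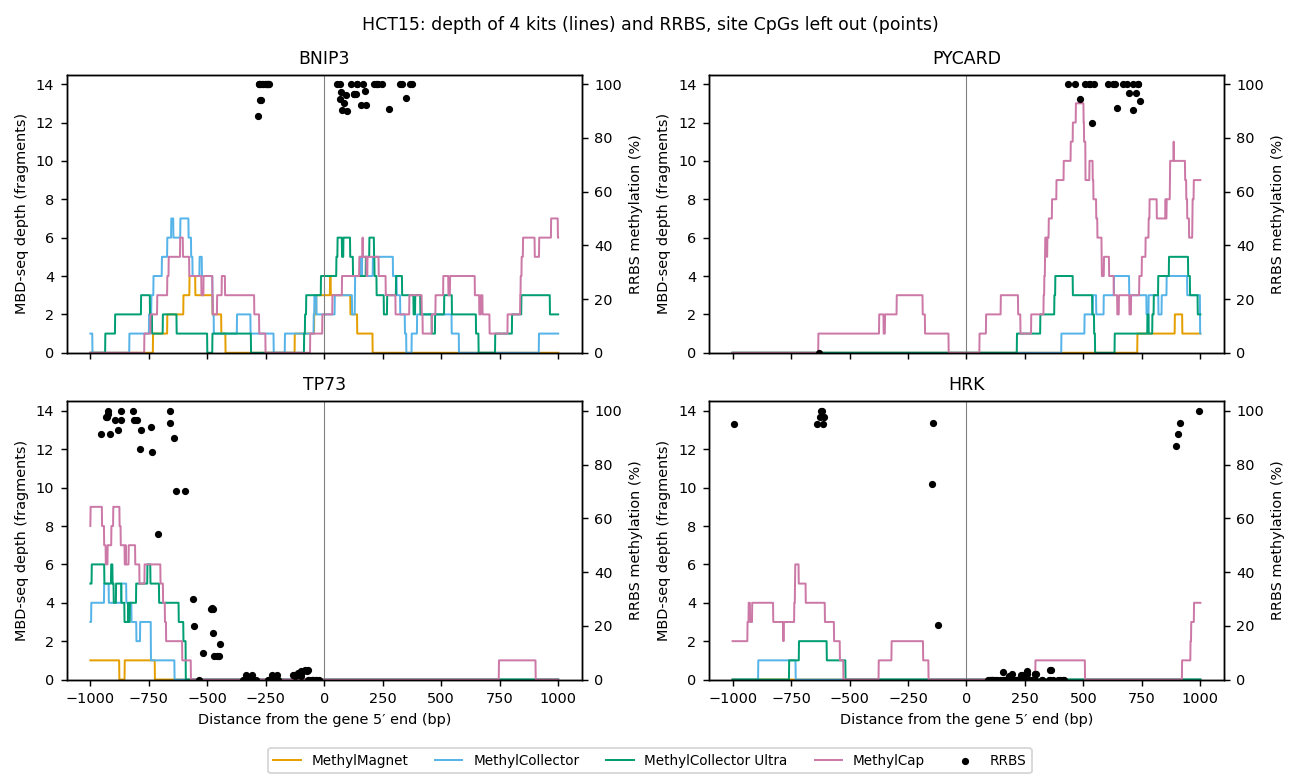
Depth of MBD-seq fragments in HCT15 (lines, left axis) and RRBS methylation of CpGs outside CCGG and TCGA (%, points, right axis) by distance from the 5′ end (bp), for BNIP3, PYCARD, TP73 and HRK and the 4 kits other than MethylMiner. Over TP73 the depth is found where the CpGs are methylated (80.3 to 90.2% of it in 16.4% of the window); over BNIP3 it also covers parts that RRBS did not measure.

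The decoy receptors gave at most 11 fragments in any library. TNFRSF10D, at 98.0% in PC3, had 4, 2, 3 and 2 fragments there, against 1, 0, 0 and 5 in HCT15 and 0, 0, 1 and 0 in DU145. TNFRSF10C had 1, 1, 3 and 1 fragments in PC3, 1, 3, 4 and 9 in HCT15, where its level was lower, and none in DU145. In MethylCap that came to 1.05 per 1000000 in PC3 (0.0266 to 5.86) and 2.32 in HCT15 (1.06 to 4.40), which overlap. Of the TNFRSF10D depth of HCT15 MethylCap, 40.5% lay between -1000 and -501 bp, where RRBS measured no CpG, and 42.0% in the 500 bp before the 5′ end, where the mean was 12.1% over 5 CpGs outside CCGG and TCGA. TNFRSF10A had 4 fragments in the 4 kits, all in DU145, and DAPK1 had 3 in HCT15, 1 in DU145 and 4 in PC3. The DAPK1 counts depended on the window. Around its canonical start the same 4 kits gave 0, 4, 6 and 5 fragments in HCT15. They gave 0, 0, 0 and 1 in DU145 and 1, 0, 4 and 1 in PC3.

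Counts were tested over all windows with edgeR's quasi-likelihood test, with the 4 kits other than MethylMiner taken as repeats of a line and the kit as a block. These repeats share 1 DNA sample per line. The p-values therefore measure how far the differences between lines vary from kit to kit, with counting error, and not the spread between cultures. The standard filter on low counts left 247 of the 20162 windows and none of the 10 members. Of the 247, 5.67% were called in HCT15 against DU145, 24.7% in HCT15 against PC3 and 12.6% in DU145 against PC3. With windows of at least 50 fragments instead, 1785 windows passed and 6.22%, 24.7% and 5.94% were called. BNIP3, PYCARD and TP73 were then tested. Of the BNIP3 fragments, 82 were from HCT15, 4 from DU145 and 0 from PC3, so it passed this filter through the line where it was high, and its test is a description that supports nothing further. Its edgeR adjusted p was 3.28e-07 for HCT15 against PC3, 0.138 for HCT15 against DU145 and 0.0581 for DU145 against PC3. PYCARD was not called in HCT15 against PC3 (edgeR adjusted p = 0.0509, log2 fold change 1.56, SE 0.63). Its adjusted p was 0.363 in HCT15 against DU145 (log2 fold change 1.22, SE 0.76). TP73 was not called in any pair (adjusted p from 0.374 to 0.977). A share of 24.7% called is a high background. PYCARD had 58, 4 and 6 fragments in HCT15, DU145 and PC3, and TP73 had 37, 2 and 14. Both therefore passed this filter through HCT15 as well, and their tests too are a description that supports nothing further. All 4 PC3 counts of BNIP3 were 0, so its fitted fold is not given.

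Among 51 other genes of apoptosis and the inflammasome, 36 had at least 3 measured CpGs in every line. Of these, 9 (HCT15), 8 (DU145) and 7 (PC3) were at or above 50%. The shares of all protein-coding windows measured in each line were 28.4%, 21.3% and 19.3%, so these counts set the genes little apart. Of the 36, 7 had a range of at least 25 points over the lines, compared with 20.3% of the 13558 windows measured in all lines. Outside CCGG and TCGA, 33 were measured, 23 of them were at most 10% in every line and 5 had such a range, against 56.1% and 21.6% of 12749 windows. Of the 9 members, 2 were at most 10% in every line and 4 had such a range. By role, 4 of 4 measured genes of the death signalling complex, 3 of 3 pro-survival BCL2 genes, 5 of 7 pro-death BCL2 genes and 4 of 5 later caspases and apoptosome genes were at most 10% outside these sites in every line. Of the receptors and decoys it was 2 of 5, and of the inflammasome genes 0 of 2. AIM2, a DNA sensor that works through PYCARD, had the largest range, from 90.4% (HCT15) over 54.3% (DU145) to 21.5% (PC3), and 88.6%, 51.7% and 1.84% over the same 7 CpGs outside CCGG and TCGA. TNFRSF6B, a soluble decoy of FAS ligand, was at 95.1%, 81.8% and 50.5%, and TNFRSF11B, another soluble decoy, at 34.5%, 52.8% and 20.8%. CASP10, an initiator caspase related to CASP8, was at 52.5%, 45.8% and 83.2% over all CpGs, but this rested on 3 to 5 CpGs, and outside CCGG and TCGA it did not have 3 CpGs in any line.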

How the data were processed

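RRBS was carried out by a service provider, and the authors deposited for each CpG the count of methylated reads and the count of all reads, both strands summed, with a minimum of 6 reads. The aligner of the RRBS reads and the enzymes are not given in the sources used here. For MBD-seq, pairs of reads were aligned by the authors to hg19 with Bowtie. The authors kept unique pairs within 400 bp, collapsed duplicates and deposited the depth of fragments along the genome as a coverage signal, unscaled. Fragments were counted again from the steps in that depth (99.5% recovered in simulated data).

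Methylation of a window was the mean over CpGs with at least 10 reads, with at least 3 CpGs. CpGs were compared by Fisher's exact test (scipy 1.17.1) and windows of MBD-seq by edgeR 4.0.16 (TMM, kit as block), with DESeq2 1.42.0 as an alternative; the 4 kits are repeats on 1 DNA sample per line, and MethylMiner was left out of the fit. In simulated data, 64.5% of CpGs moved by 50 points and 91.5% of windows moved 8-fold were recovered. The simulated windows were those that passed the standard filter, which no member did, so the 91.5% does not cover the members. Of the 20000 simulated CpGs 200 were moved, a smaller share than was called in the data. 5′ ends are the outermost of GENCODE, and the 10 members and the list of other apoptosis genes were chosen with earlier results of these data known. Total reads over CpGs were 72638326 in HCT15, 130667913 in DU145 and 93623967 in PC3. Named among the other genes were those with the 5 largest ranges of window mean over the lines, of which 1 is not reported here; all members are described. Levels outside CCGG and TCGA were added after seeing the data. Alternatives were the coverage minimum, the window, the transcript start, scaling, filters on low counts and each kit left out. Sequences come from the GRCh37 reference. Every column of the files belongs to 1 sample.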

Additional observations from a re-analysis of the deposited data

How the results depend on the processing

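For the 27 differences between window means, 10 alternatives gave 270 values, of which 267 stayed on their side of 25 points. The sign changed in 31, to a size of at most 7.97 points, and 3 of these started from at least 10 points: TP73 within 500 bp (from 17.6 to -7.07 points for HCT15 against DU145 and from 15.1 to -7.97 against PC3) and DAPK1 within 2000 bp (from -11.1 to 0.756 for HCT15 against PC3). The exceptions came with the window of 500 bp, for PYCARD as given above and for DAPK1 in HCT15 against PC3 (-27.0 points). With at least 50 reads per CpG, fewer CpGs were tested. The called CpGs were 53 of 158 in HCT15 against DU145 and 54 of 128 in HCT15 against PC3. In DU145 against PC3 they were 28 of 176. Of 7 members measured, 1 was then at or above 50% in PC3 and 1 past 25 points in DU145 against PC3. TNFRSF10D left these counts because it kept only 1 CpG in PC3, at 100%. Its difference, DU145 minus PC3, was still -84.2 points. With the window of 500 bp the called CpGs were 83 of 289 in HCT15 against DU145 and 95 of 253 in HCT15 against PC3. In DU145, 1 of 9 members (PYCARD, on 5 CpGs) was at or above 50%. At the canonical transcript start this was also 1 member, CASP8. A limit of 10 points gave 5 of 9 members in HCT15 against DU145. Leaving out CCGG and TCGA, an alternative chosen after seeing the data, gave 108 of 348, 140 of 307 and 72 of 299 CpGs called. The share of all CpGs called was not counted in these RRBS settings, nor that of all windows past 10 points. In MBD-seq, 0 members were called in any pair by edgeR or DESeq2 with the standard filter, since none was tested. In HCT15 against PC3, 1 member (BNIP3) was called with windows of at least 1 fragment, 1 with windows of at least 50 fragments, and 0 to 1 when a kit was left out (1 without MethylMagnet). The share of all windows called in this pair with at least 50 fragments was high, as given above. It was nearly as high without MethylMagnet, and much lower with windows of at least 1 fragment. These calls of BNIP3 rest on the same fragments, nearly all from HCT15. They are therefore a description, as above, and their repetition supports nothing further. Without the replicate block for kit no member passed the filter either (0 members tested), so pairing by kit could not be assessed for the members. Total fragments in place of TMM moved the median log2 fold change of all windows from 0.28 to -0.04 in HCT15 against DU145, from 0.07 to 0.32 in HCT15 against PC3 and from -0.23 to 0.28 in DU145 against PC3. The depth of DU145, with at most 30336 fragments in 3 kits, limits what its zeros say.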

Other observations

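Among the 16 possible contexts of a CpG with its neighbouring base on either side, only CCGG and TCGA stood apart in unmethylated surroundings. The other 14 had a median of 0.0% in every line and an upper quartile of at most 1.54%. CCGG alone had a median of 51.2% (HCT15), 51.9% (DU145) and 51.8% (PC3), and TCGA had 52.4%, 53.3% and 53.8%. These sites were 36.3%, 38.3% and 37.3% of the CpGs with at least 20 reads in the same order of lines, and 0.845%, 0.637% and 1.11% of them were at most 10% methylated, against 40.7%, 35.2% and 42.4% of other CpGs. Over all protein-coding windows measured in every line, the median mean fell from 17.0%, 17.1% and 16.3% with all CpGs to 2.30%, 2.60% and 2.57% without these sites.

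The PC3 RRBS file held 0 CpGs on chromosome 22, against 87035 in HCT15 and 79564 in DU145, so genes there were not analysed here in PC3. No member lies on that chromosome.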
